A study of Rattus norvegicus with 6 samples.

Results

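The monocyte-attracting CC chemokines Ccl2, Ccl3, Ccl4, Ccl7, Ccl22 and Ccl24 and the chemokine receptors Ccr1, Ccr2 and Cxcr4 were followed in primary rat microglia stimulated with LPS in the absence or presence of siponimod. The members were chosen by gene name. Of these 9 genes, 7 had a row in the count tables and 6 passed the filter on low counts, out of 23139 genes with a row and 11977 that passed. Ccl22 and Ccr1 had no row under these names and were not analysed here.

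Microglia came from cortices of Wistar rats at postnatal day 1, were shaken off mixed glial cultures and were purified with magnetic beads against CD11b/c. All cells received lipopolysaccharide (LPS, 100 ng/ml), a bacterial cell wall component that activates microglia through a Toll-like receptor. The LPS/siponimod condition received 50 µM siponimod (3 libraries), a modulator of sphingosine-1-phosphate receptors that was dissolved in DMSO. The LPS condition received a similar amount of the solvent DMSO without siponimod (3 libraries), per the study's methods. Messenger RNA was sequenced in bulk, with 38080379 to 46643859 reads counted per library. Since both conditions contain LPS, the comparison does not show the response to LPS itself. In bulk RNA, fewer cells of a type and less RNA per cell cannot be told apart.

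Chemokines are small secreted proteins that guide migrating cells by way of G protein-coupled receptors. Ccl2 and Ccl7 attract monocytes through the receptor Ccr2. Ccl3 and Ccl4 attract monocytes and lymphocytes, and Ccl3 is a ligand of Ccr1. Ccl22 is a ligand of Ccr4, Ccl24 of the eosinophil receptor Ccr3, and Cxcr4 is the receptor of Cxcl12, a CXC chemokine. Activated microglia are a known source of several of these ligands, and genes of the family lie in clusters. In the RefSeq annotation Ccl2 and Ccl7 are neighbours on chromosome 10, where Ccl3 and Ccl4 also lie, and Ccr1 and Ccr2 share a cluster on chromosome 8.

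The labelled cell type was checked against marker genes. Of 17 microglial markers 16 had a row and 1 of these, Siglech, was without a count. Aif1, which encodes Iba1, stood at 878 ± 69.1 CPM (counts scaled to library size, mean ± SD, n = 3) with LPS and at 238 ± 135 CPM with LPS/siponimod. Itgam, which encodes CD11b, stood at 992 ± 52.0 and 542 ± 27.4 CPM. Of 13 tested microglial markers that reached the low-count filter's level in every library of both conditions, 3 were called lower with LPS/siponimod, Aif1 and Itgam among them, and 1, Sall1, was called higher. The markers summed to 9513, 7684 and 5039 CPM in LPS replicates 1 to 3 and to 3007, 4367 and 2171 CPM with LPS/siponimod. Csf1r, the receptor for a microglial growth factor, was the most abundant by mean in each condition, while Itgam lay above it in both replicate 3 libraries. Aif1, Itgam and Csf1r were thus counted in every library. The summed list was lower in every LPS/siponimod library than in any LPS library. With the replicate block 8 of the 13 were called lower and 1 higher. Some genes of the list were scarce, such as Cx3cr1, with 3, 21 and 4 counts under LPS/siponimod. P2ry12 stood at 15.8, 15.8 and 1.16 CPM under LPS, compared with 0.387, 2.37 and 0.317 CPM. Tmem119 was less reduced, with 18.7, 24.9 and 22.6 CPM against 7.30, 20.8 and 15.2 CPM. Whether the markers tell microglia from other macrophages was not tested, nor was their part in the chemokine values.

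LPS replicate 3 stood apart from the other LPS libraries. Olig1, an oligodendrocyte lineage factor, had 1, 5 and 515 counts in LPS replicates 1 to 3 and 2, 3 and 17 counts with LPS/siponimod. Pdgfra, a receptor of oligodendrocyte precursors, had 5, 4 and 284 counts under LPS, compared with 1, 4 and 81 counts under LPS/siponimod. The neuronal Map2 had 0, 3 and 162 counts against 1, 1 and 115, and the astrocytic Gfap had 1, 2 and 88 counts against 0, 0 and 1. These genes, chosen after their values were seen, were low in replicates 1 and 2 of both conditions and higher in one or both replicate 3 libraries. Summed over the whole lists, the 10 oligodendrocyte lineage markers came to 150, 136 and 149 CPM with LPS and to 49.2, 67.8 and 60.0 CPM with LPS/siponimod. These sums came mostly from Cnp, with 145, 131 and 113 CPM against 37.8, 57.5 and 37.4 CPM. Mbp of the same list went the other way, with 4.02, 4.18 and 2.26 CPM against 10.1, 8.89 and 15.9 CPM. The 10 astrocyte markers, led by Slc1a3, came to 48.4, 24.4 and 28.5 CPM against 29.4, 28.9 and 61.2 CPM, and the 10 neuronal markers, led by Tubb3, to 1.78, 1.09 and 12.5 CPM against 6.41, 9.30 and 17.7 CPM. Their part in the results was not tested. Fold changes of members that rest on replicate 3 are given with and without it, while ratios of spread include it.

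**Figure D1:**
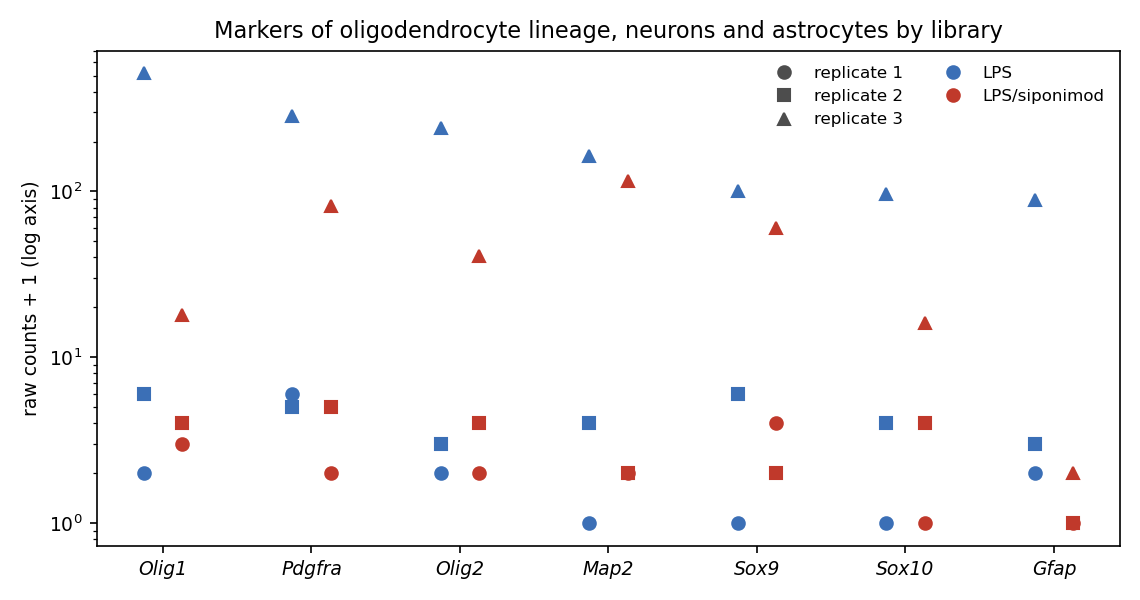
Counts plus 1 (log axis) of marker genes of other brain cells, chosen after their values were seen, in each library of LPS (blue) and LPS/siponimod (red), with replicates 1, 2 and 3 as circles, squares and triangles. The LPS replicate 3 triangles lie highest, with 515 counts for Olig1 and 284 for Pdgfra.

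The upstream sequences of Ccl7 and Cxcr4 are shown because the ratio of Ccl2 to Ccl7 is described below and because Cxcr4 is the member whose conditions did not overlap. Both are the 250 bases before the annotated start in RefSeq on the assembly GRCr8, a later assembly than the mRatBN7.2 used for mapping. Of the 9 genes 6 had an entry; Ccl2, Ccl3 and Ccl4 had none. Capitals mark matches, on either strand, to AP-1 (TGANTCA), the GC box (GGGCGG) and the TATA box (TATAAA).
Ccl7, chr10:67513845-67514094, plus strand: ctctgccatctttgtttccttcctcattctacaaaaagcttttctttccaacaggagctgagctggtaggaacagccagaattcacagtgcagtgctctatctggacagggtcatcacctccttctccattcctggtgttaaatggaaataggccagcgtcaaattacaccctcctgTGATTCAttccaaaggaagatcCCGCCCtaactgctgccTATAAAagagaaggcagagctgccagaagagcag
Cxcr4, chr13:42634289-42634538, minus strand: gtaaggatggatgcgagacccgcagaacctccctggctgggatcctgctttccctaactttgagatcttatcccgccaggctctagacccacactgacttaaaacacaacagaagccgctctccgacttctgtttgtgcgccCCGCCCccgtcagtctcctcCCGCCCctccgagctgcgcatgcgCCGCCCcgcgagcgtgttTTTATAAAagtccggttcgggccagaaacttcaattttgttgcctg
The Ccl7 window held 1 AP-1 match, beginning 73 bases before the start, 1 GC box at 51 and 1 TATA match at 34. The Cxcr4 window held 3 GC boxes, at 108, 88 and 64 bases, and 2 overlapping TATA matches at 46 and 44. Among 33469 promoters of the same length 6.34% held an AP-1 match, 30.5% a GC box and 12.9% a TATA match. Neither window held the kB motif, present in 3.54%, or the C/EBP-ATF motif TGATGNAA, present in 3.40%. A match describes letters only, and draws on no measurement of binding.

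None of the 6 tested members was called changed by the edgeR quasi-likelihood test, with the threshold at an adjusted p of 0.05 and a 1.5-fold change. Over all genes tested 25.3% were called, 13.6% as higher and 11.7% as lower with LPS/siponimod. None of the 6 had an unadjusted p of at most 0.05 either, against 43.7% of all genes, and Cxcr4 came nearest. DESeq2 called 1 of the 6, Cxcr4, against 32.5% of all genes, and limma-voom called none, against 25.9%. DESeq2 gave no adjusted p for Ccl3, which could therefore not be called in that fit. The log2 fold change of LPS/siponimod over LPS was above 0 for 3 members and below 0 for 3, with a median of -0.12 beside -0.02 for all genes tested. These intervals were wide, and a missed threshold does not show that the levels were alike.

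Among the Ccr2 ligands, Ccl2, also known as monocyte chemoattractant protein, had 748, 426 and 2853 CPM in LPS replicates 1 to 3 and 1399.5, 1094 and 2710 CPM with LPS/siponimod. LPS replicate 3 was the highest of all 6 libraries and the conditions overlapped. The log2 fold change was 0.37 (SE 0.75, 95% interval -1.43 to 2.17, adjusted p = 0.732, edgeR quasi-likelihood). Within same-numbered libraries the log2 difference was 0.90 and 1.36 in pairs 1 and 2 and -0.07 in pair 3. Pairs 1 and 2 thus moved up and pair 3 hardly moved.

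Ccl7, a ligand of Ccr2 with a broader receptor range, had 995, 628 and 2702 CPM under LPS, compared with 698, 630.06 and 920.32 CPM under LPS/siponimod. Again LPS replicate 3 was the highest library, and the conditions overlapped. The log2 fold change was -0.94 (SE 0.54, 95% interval -2.26 to 0.37, adjusted p = 0.226, edgeR quasi-likelihood). The pair differences were -0.51, 0.0039 and -1.55 on the log2 scale, so that pair 2 was level and the other pairs were lower with siponimod. Without LPS replicate 3 the log2 fold change was -0.11 (adjusted p = 0.781).

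Among the macrophage inflammatory proteins, Ccl3 (the 1-alpha form) had 834, 747 and 7535 CPM under LPS, compared with 1598, 1739.7 and 2473 CPM under LPS/siponimod. LPS replicates 1 and 2 lay below every LPS/siponimod library and LPS replicate 3 above all of them. The log2 fold change was -0.65 (SE 0.92, 95% interval -2.87 to 1.58, adjusted p = 0.618, edgeR quasi-likelihood). Ccl4 (the 1-beta form) had 407, 290.02 and 2108 CPM under LPS, compared with 489, 749 and 591 CPM under LPS/siponimod. It was split in the same way, with LPS replicates 1 and 2 lowest and LPS replicate 3 highest. The log2 fold change was -0.62 (SE 0.75, 95% interval -2.44 to 1.21, adjusted p = 0.560). The pair differences of Ccl3 were 0.94, 1.22 and -1.61, and those of Ccl4 were 0.27, 1.37 and -1.83, so that both genes were higher with siponimod in pairs 1 and 2 and lower in pair 3.

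The direction of Ccl3 and Ccl4 rested on LPS replicate 3. Without this library, Ccl3 had a log2 fold change of 1.30 (SE 0.27, adjusted p = 0.0233) and was the 1 member called, against 30.3% of all genes in that fit. Ccl4 had 0.81 (SE 0.26, adjusted p = 0.0629) and Ccl2 had 1.57 (SE 0.51, adjusted p = 0.0624). With both replicate 3 libraries left out, a fit added after the data were seen, Ccl3 had 1.08 (SE 0.23, adjusted p = 0.0438) and was again the 1 member called, against 19.3% of all genes. When the replicate number was also kept as a block, Ccl2 (1.14, SE 0.25, adjusted p = 0.0334) and Ccl3 (1.08, SE 0.25, adjusted p = 0.0371) were called, 2 of 6 against 31.6% of all genes. That fit rests on pairs 1 and 2 alone, so its standard errors lean mostly on the spread estimated over all genes. With 6 members tested, nothing particular to them is read from counts of 1 or 2. With all 6 libraries and the block, the log2 fold change was 0.73 for Ccl2, 0.24 for Ccl3 and -0.03 for Ccl4, and none of these was called.

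**Figure D2:**
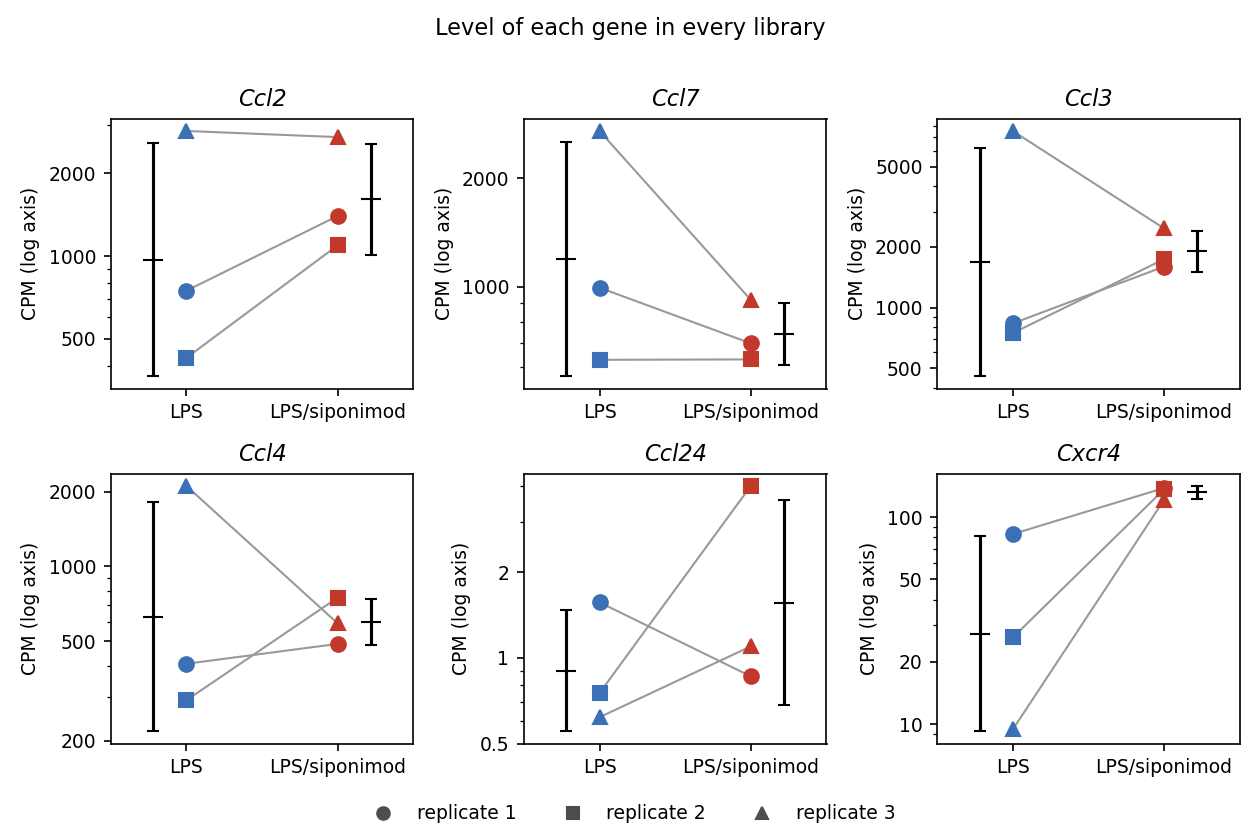
Level in CPM (log axis) of each tested member in the 3 LPS (blue) and 3 LPS/siponimod (red) libraries, with replicates 1, 2 and 3 as circles, squares and triangles, grey lines joining the same number, and black bars giving the mean and SD on the log scale. Ccl3 in LPS replicate 3 lies at 7535 CPM, above the others, and Cxcr4 is the gene whose conditions do not overlap.

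Ccl24, known as eotaxin-2, was counted rarely, with 58, 29 and 23 counts under LPS, compared with 40, 179 and 45 counts under LPS/siponimod. The 179 counts of LPS/siponimod replicate 2 stood above all other libraries, and the rest overlapped. The log2 fold change of 1.02 (SE 0.71, adjusted p = 0.308) became -0.0094 without that library. Its receptor Ccr3 had 1 to 4 counts per library. Ccr4, the receptor of Ccl22, had 1 count in replicate 1 of each condition and none elsewhere, and Ccl17, the other ligand of Ccr4, had 2, 2 and 3 counts under LPS, compared with 0, 1 and 2 under LPS/siponimod. These 3 genes were not tested.

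Among the receptors, Cxcr4, which guides cells toward Cxcl12, had 82.8, 26.2 and 9.45 CPM under LPS, compared with 138, 136 and 121 CPM under LPS/siponimod. All LPS/siponimod libraries were above all LPS libraries, which holds for 1 of the 6 members and for 49.3% of all genes tested. The same sign in all 3 pairs was also seen for 1 of the 6, Cxcr4, against 70.8% of all genes. The log2 differences within pairs were 0.74, 2.37 and 3.67. The mean was 39.5 ± 38.4 CPM with LPS and 132 ± 9.31 CPM with LPS/siponimod (SD, n = 3), and the fitted fold change was 3.34 (log2 1.74, SE 0.72, 95% interval -0.01 to 3.48, adjusted p = 0.115, edgeR quasi-likelihood). The LPS libraries spread widely and the LPS/siponimod libraries lay close together.

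Cxcr4 was called in other fits. With the replicate number as a block the log2 fold change was 2.26 (SE 0.60, adjusted p = 0.0395), and Cxcr4 was the 1 member called, against 34.0% of all genes. DESeq2 gave an adjusted p of 0.0279. Without LPS replicate 1, the highest LPS library for Cxcr4, the log2 fold change was 2.89 (adjusted p = 0.0313) and 1 member was called against 13.9% of all genes. Without LPS replicate 3 it was 1.28 (adjusted p = 0.0910), without LPS replicate 2 the adjusted p was 0.301, and without both replicate 3 libraries the log2 fold change was 1.34 (adjusted p = 0.141), and 1.56 (adjusted p = 0.0565) with the block. Its ligand Cxcl12 had 4, 9 and 81 counts under LPS, compared with 1, 7 and 11 under LPS/siponimod. Ackr3, a scavenging receptor for Cxcl12, had at most 2 counts in a library. These genes were too low to be tested, and the 81 counts of Cxcl12 fell in LPS replicate 3.

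Ccr2, the receptor of Ccl2 and Ccl7 and a marker of blood monocytes, had 0 counts of 244704029 in the 6 libraries, which allows up to 3 counts, or 0.0123 CPM over all libraries and 0.0643 to 0.0788 CPM per library. This limit covers counting error only, as reads that carry no molecular identifiers cannot be counted as separate molecules. Other genes on the monocyte or border macrophage list were counted, led by Siglec1. The list summed to 3089, 2223 and 1295 CPM with LPS and to 620, 879 and 361 CPM with LPS/siponimod. Of its 5 genes that reached the filter's level in both conditions, 3 were called lower, beside 12.2% of all such genes. With the replicate block 4 of the 5 were called lower, beside 1818 of 10902 genes. Its part in the chemokine values was not tested.

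Ccr1l1, a gene related to Ccr1 that was chosen after its values were seen, had 0, 1 and 1 counts under LPS, compared with 29, 33 and 285 under LPS/siponimod. It passed the filter on low counts through its LPS/siponimod libraries, and no test of it is given. How reads shared by related genes were assigned is not stated, so the values of such close relatives are uncertain.

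**Figure D3:**
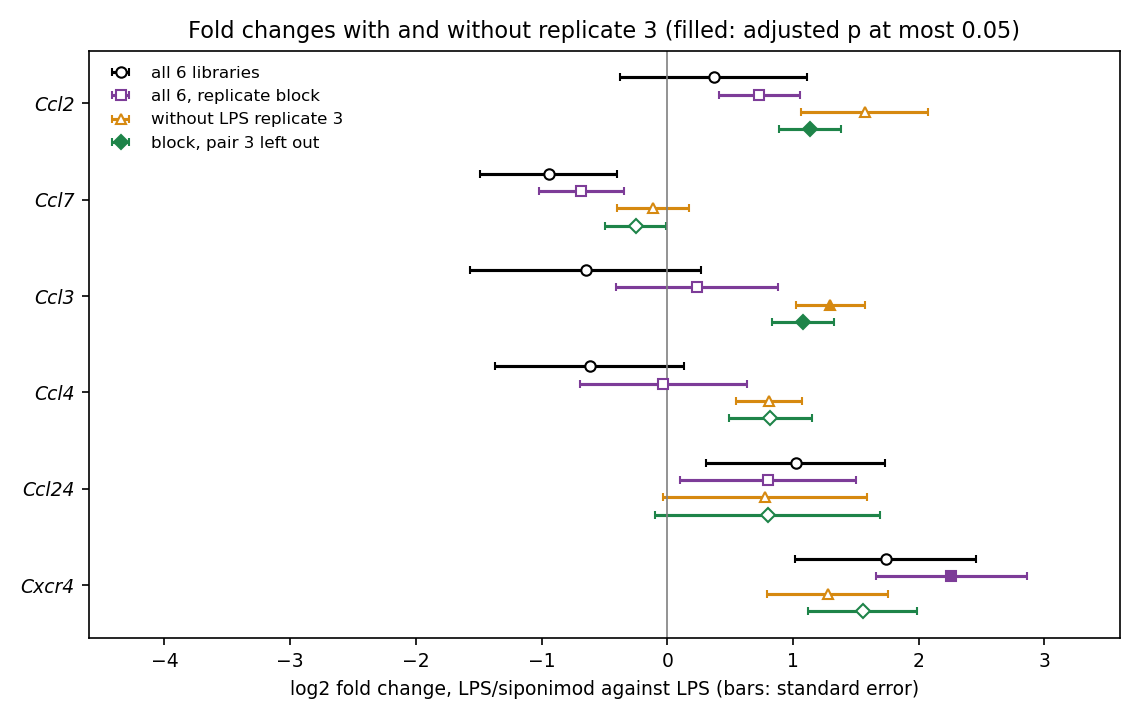
Log2 fold change of LPS/siponimod over LPS for each tested member in the fits of all 6 libraries, with the replicate block, without LPS replicate 3, and with the block and both replicate 3 libraries left out. Bars are standard errors, and markers are filled where the adjusted p was 0.05 or less. Ccl3 and Ccl4 change side when LPS replicate 3 is left out, and Cxcr4 stays above 0 in the fits shown.

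With LPS replicate 3 included, the spread between LPS libraries was wide for 5 of the 6 tested members and less so for Ccl24. This library was the highest under LPS for Ccl2, Ccl3, Ccl4 and Ccl7 and the lowest for Cxcr4. LPS replicates 1 and 2 alone stood at 834 and 747 CPM for Ccl3 and at 407 and 290.02 CPM for Ccl4. They stood at 748 and 426 CPM for Ccl2, 995 and 628 CPM for Ccl7, and 82.8 and 26.2 CPM for Cxcr4. The highest LPS library exceeded the lowest 10.1-fold for Ccl3, 8.75-fold for Cxcr4, 7.27-fold for Ccl4, 6.69-fold for Ccl2, 4.30-fold for Ccl7 and 2.50-fold for Ccl24, beside a median of 1.46-fold over all genes tested. These ratios lay at the 97.0, 96.6, 95.7, 95.1, 91.7 and 81.7 percentiles of all genes tested. With LPS/siponimod the ratios were 1.55 for Ccl3, 1.53 for Ccl4, 2.48 for Ccl2, 1.46 for Ccl7, 1.14 for Cxcr4 and 4.61 for Ccl24, beside a median of 1.34. These lay at the 65.4, 64.5, 86.1, 60.0, 19.3 and 94.5 percentiles, so that Ccl24 alone among the members spread more widely with LPS/siponimod than with LPS. These ratios come from CPM with a small count added, which matters for the rarely counted Ccl24. From CPM without it, the Ccl24 ratio was 2.53 with LPS and 4.66 with LPS/siponimod. A difference in spread was not tested with 3 libraries per condition. The 4 ligands together took 0.280%, 0.210% and 1.48% of all counts under LPS, compared with 0.417%, 0.434% and 0.706% under LPS/siponimod.

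Since all 4 ligands were highest among the LPS libraries in replicate 3, their count ratios within each library were compared, a choice made after the values were seen. Such a ratio also depends on transcript length, so that its change between libraries is read and not its size. The Ccl2 to Ccl7 count ratio was 0.752, 0.678 and 1.06 under LPS, compared with 2.01, 1.74 and 2.94 under LPS/siponimod. All LPS/siponimod libraries, replicate 3 included, lay above all LPS libraries, and the mean log2 ratios differed by 1.42 (exact permutation test, two-sided, p = 0.1, adjusted p = 0.267 over 8 ratios). With 3 against 3 libraries this test cannot go below 0.1, and it did not use the replicate numbers. Within same-numbered libraries the ratio went from 0.752 to 2.01, from 0.678 to 1.74 and from 1.06 to 2.94. A paired test of the ratios was not run. The Ccl3 to Ccl4 ratio was 2.05, 2.58 and 3.57 under LPS, compared with 3.27, 2.32 and 4.18 under LPS/siponimod, and the conditions overlapped (difference 0.25, exact permutation p = 0.5). Of the 8 ratios 3 did not overlap, the others being those of Ccl12 to Ccl2 and to Ccl7. The share over ratios of other genes was not computed, and 49.3% of single genes tested did not overlap. Ccl12 alone did not overlap either, so its ratios are not independent of its own level. Nothing particular to these ligands is read from this count.

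**Figure D4:**
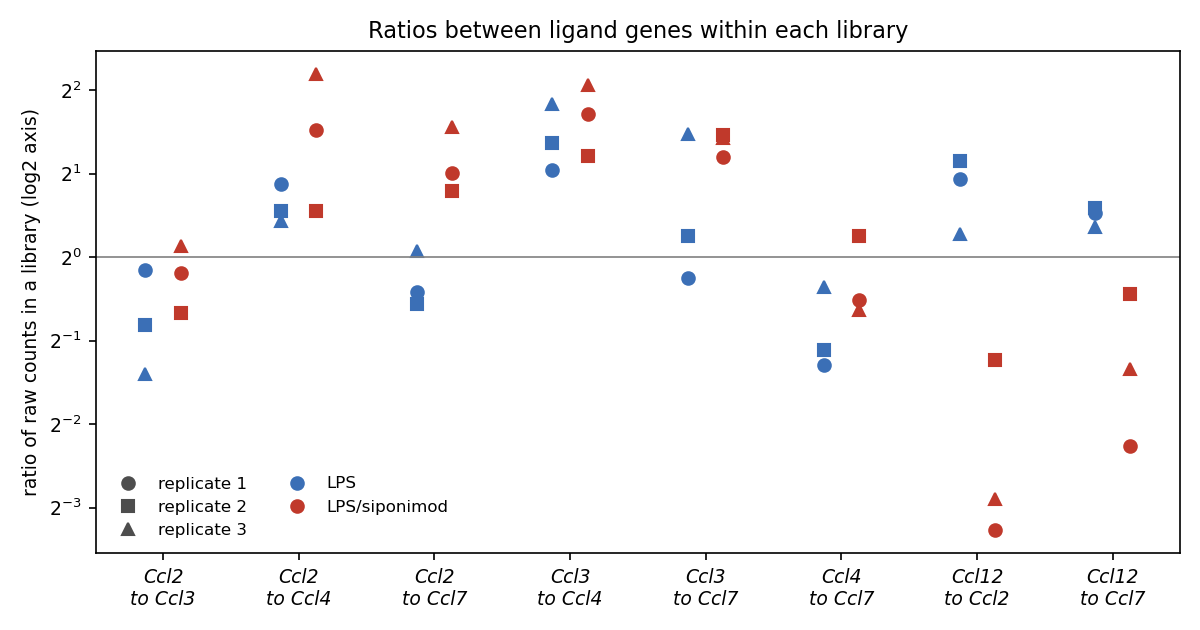
Ratios of ligand counts within each library of LPS (blue) and LPS/siponimod (red) on a log axis, with replicates 1, 2 and 3 as circles, squares and triangles. The Ccl2 to Ccl7 ratio lies between 0.678 and 1.06 with LPS and between 1.74 and 2.94 with LPS/siponimod.

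Ccl12, a further Ccr2 ligand from the same gene cluster, was called lower with LPS/siponimod. It had 53204, 36338 and 128912 counts under LPS, compared with 6739, 20791 and 14924 under LPS/siponimod. The conditions did not overlap (1950 ± 1340 against 325 ± 164 CPM, log2 fold change -2.58, SE 0.64, adjusted p = 0.0309, edgeR quasi-likelihood). The adjusted p rose to 0.0600 to 0.0998 when LPS replicate 1 or 2 or LPS/siponimod replicate 1 or 3 was left out. Without LPS replicate 3 the log2 fold change was -1.87 (adjusted p = 0.0412), and without both replicate 3 libraries it was -1.96 (adjusted p = 0.0872) or, with the block, -2.16 (adjusted p = 0.0647), so that the call was lost. The Ccl12 to Ccl2 ratio was 1.92, 2.21 and 1.22 under LPS, compared with 0.104, 0.426 and 0.134 under LPS/siponimod (log2 difference -3.26, exact permutation p = 0.1).

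In the rest of the ligand family, 16 of 30 genes were tested and 13 of these reached the filter's level in every library of both conditions. Of the 13, 7 were called lower and none higher, beside 12.2% lower and 13.3% higher over the 10902 genes that reached it in both, with a median log2 fold change of -1.48. Over all tested ligands, including those that reached the level in one condition only, the number called lower was 3 without LPS replicate 1 or 2 and 2 without LPS/siponimod replicate 1 or 3, while over all genes it fell from 1403 to 644 and 182 and to 191 and 273 in the same fits. Without LPS replicate 3, 5 of all tested ligands were called higher and 7 lower, beside 1941 and 1772 of 12242 genes. Without both replicate 3 libraries 3 were called higher and 3 lower, beside 1335 and 983 of 12032 genes. The lowest adjusted p belonged to Cxcl11 (-4.18), Cxcl17 (-2.26), Cxcl13 (-3.32) and Cxcl10 (-3.12). Cxcl10 and Cxcl11 are interferon-induced ligands of Cxcr3, and Cxcl13 attracts B cells. Cxcl11 and Cxcl17 kept the call in every fit, while Cxcl10 and Cxcl13 lost it in 1 or more fits without a single library. Ccl5, which attracts T cells and monocytes, was also called lower (34.1 ± 15.4 against 12.2 ± 4.26 CPM, log2 fold change -1.48, SE 0.40, adjusted p = 0.0377, edgeR quasi-likelihood). Ccl5 lost this call when LPS replicate 1 or 2 or LPS/siponimod replicate 1 or 3 was left out, with adjusted p-values reaching 0.134, and without both replicate 3 libraries (0.0793). With the replicate block 1 of the 13, Cxcl3, was called higher and 7 lower, beside 1837 and 1818 of the 10902 genes. Ccl20 and Cxcl6 passed the filter through their LPS/siponimod libraries, and no test of them is given.

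Among 19 other receptors, 5 were tested and 3 of these, Ccrl2, Cxcr5 and Cxcr6, reached the filter's level in every library of both conditions. Ccrl2, an atypical receptor that presents chemerin and does not signal, was called higher (30.3 ± 16.2 against 99.0 ± 20.3 CPM, log2 fold change 1.71, SE 0.40, adjusted p = 0.0273, edgeR quasi-likelihood), beside 13.3% of all genes that reached it in both. It lost the call when LPS replicate 1 or 2 or LPS/siponimod replicate 1 or 3 was left out, with adjusted p-values reaching 0.104. The B cell receptor Cxcr5 was called lower with the replicate block and not without it. The fractalkine receptor Cx3cr1 had 69, 202 and 35 counts under LPS, compared with 3, 21 and 4 under LPS/siponimod, and the neutrophil receptor Cxcr2 had 294, 927 and 152 counts against 8, 77 and 1. Both passed the filter through the LPS libraries, and no test of them is given.

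Genes that act behind chemokine receptors were also counted, from a list of 52. Of 49 tested, 47 reached the filter's level in both conditions, and of these 16 were called lower and 2 higher, beside 12.2% lower and 13.3% higher over all such genes, with a median log2 fold change of -0.46. The genes called higher were Tiam1, an activator of Rac (0.686 ± 0.238 against 15.8 ± 6.36 CPM, log2 4.52, SE 0.46, adjusted p = 0.00568), and Rgs1, which shortens G protein signals and restrains chemokine-driven migration (15.8 ± 13.2 against 266 ± 131 CPM, log2 4.07, SE 0.83, adjusted p = 0.0185). Tiam1 had 16 to 32 counts in the LPS libraries and 400 to 1002 with LPS/siponimod. Those called lower with the lowest adjusted p were the Src family kinase Fgr (log2 -1.45), the Rac activator subunit Elmo1 (-1.41), the kinase Ptk2b (-0.92) and Prex1, a Rac activator downstream of G protein subunits (1379 ± 278 against 336 ± 192 CPM, log2 -2.04). Of the genes named here that act on Rac, Tiam1 was called higher and Prex1 and Elmo1 lower. Rac activators were not tested as a group. The number called lower was 0 without LPS replicate 2 or LPS/siponimod replicate 1, 1 without LPS replicate 1, 2 without LPS/siponimod replicate 3 and 4 without both replicate 3 libraries, where the number over all genes also fell, as given for the ligands. Rgs1, Fgr, Elmo1, Ptk2b and Prex1 each lost their call in 1 or more fits without a single library, while Tiam1 kept it in all of them.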

How the data were processed

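Bulk mRNA of rat microglia was sequenced in 6 libraries, with 3 biological replicates per condition per the study's methods. Demultiplexing used bcl2fastq 2.20.0.422, and reads were mapped to mRatBN7.2, per the submitters' processing notes. The values the authors deposited are raw counts, 1 total per gene and library. Handling of multi-mapped reads, strand and introns is not given in the sources used here, so the values of related or overlapping genes are uncertain. Deeper libraries carry less counting error, and the floor was 3 counts per library. In 1 library, 1 row without a name held no count and was left out.

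Counts were analysed in R 4.3.3 with edgeR 4.0.16 (filterByExpr with a minimum count of 10 and total of 15, TMM factors of 0.939 to 1.056, glmQLFit and glmQLFTest with treatment as the only term, Benjamini-Hochberg over 11977 genes). Counts for gene lists are given for genes that reached the filter's CPM level in every library of both conditions, which all 6 tested members did. Genes with an adjusted p up to 0.05 and a 1.5-fold or larger change were called. Alternatives were DESeq2 1.42.0, limma-voom (limma 3.58.1), RLE scaling, other filters, a replicate block, and each library left out. The fits were tested on simulated data. Named from each gene list were up to 4 called genes per direction with the lowest adjusted p, and for each member the 3 tested genes of at least 1 CPM most correlated with it. Some genes of these lists are not reported here. Members and lists were chosen with earlier results of these data known.

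Replicates share the numbers 1 to 3. Deviations from the condition means correlated at 0.420, 0.545 and 0.611 between same-numbered libraries and at -0.534 to 0.0856 otherwise. The deviations within a condition cancel by construction, so positive values for same-numbered libraries push the other values down. Differences within same-numbered pairs are given because of the positive values, from the data and not from a label. The main fit and the permutation tests did not use the pairs, whereas the replicate block did. P-values set the difference between the conditions against the spread between these samples.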

Additional observations from a re-analysis of the deposited data

How the results depend on the processing

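The number of members called higher was 0, and became 1 with DESeq2, with the replicate block and without both replicate 3 libraries, 2 with the replicate block and both of these libraries left out, and 0 to 1 when single libraries were left out. No member was called lower in any of these fits. Over all genes 3036 were called (1633 higher, 1403 lower) and 4074 with the replicate block (2114 higher, 1960 lower). With single libraries left out, 651 (without LPS replicate 2) to 3713 (without LPS replicate 3) were called, 469 to 1941 as higher and 182 to 1772 as lower. RLE scaling and both filters on low counts changed no call among the members.

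Ccl3 changed direction with limma-voom (0.18), the replicate block (0.24), both replicate 3 libraries left out (1.08), and these left out with the block (1.08). Ccl4 changed direction in the last 2 of these (0.83 and 0.82). When single libraries were left out, the log2 fold change ranged from -1.08 to 1.30 for Ccl3, from -1.02 to 0.81 for Ccl4, from -0.10 to 1.57 for Ccl2 (below 0 without LPS replicate 2 or LPS/siponimod replicate 3), from -0.0094 to 1.54 for Ccl24, from -1.28 to -0.11 for Ccl7 and from 1.28 to 2.89 for Cxcr4 (adjusted p of 0.0313 to 0.301). The direction of Ccl2, Ccl3, Ccl4 and Ccl24 therefore depends on single libraries, while that of Ccl7 and Cxcr4 did not change in any fit. The cause was not tested. Ccr2, Ccr3 and Ccr4, with 0 to 4 counts per library, were too low to be compared.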

Other observations

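Genes that act on chemokine mRNA or protein were also counted, and their numbers of higher calls lay near the share of all genes called higher, 13.6%, beside 11.7% called lower. Of 16 tested mRNA decay genes 2 were called higher and none lower. These were Rc3h1, which encodes the RNA-binding protein roquin-1 (29.2 ± 3.45 against 76.1 ± 18.6 CPM, log2 1.38, adjusted p = 0.00994, edgeR quasi-likelihood), and Zc3h12c, a relative of regnase-1 (17.4 ± 4.68 against 29.7 ± 1.26 CPM, log2 0.77, adjusted p = 0.0404). Of 13 tested genes for chemokine-cleaving enzymes 2 were called higher, the lysosomal protease Ctsd (1771 ± 520 against 3857 ± 892 CPM, log2 1.12, adjusted p = 0.0364) and the aminopeptidase Anpep (68.6 ± 51.6 against 403 ± 242 CPM, log2 2.56, adjusted p = 0.0482), and none lower. Zc3h12c, Ctsd and Anpep were no longer called when all genes with at least 1 count were tested, and without LPS replicate 2 none of these 4 genes was called.

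The genes whose log2 CPM over the 6 libraries lay closest to each member were Enah, Jmjd6 and Pcsk1n for Ccl2 (r of 0.985 to 0.993), Msr1, Gramd1a and Ubtd1 for Ccl7 (0.991 to 0.998), Ppie, Abhd17c and Riok2 for Ccl3 (0.990 to 0.997), Mob3a, Mmaa and Rab18 for Ccl4 (0.959 to 0.995), Sp2, Ino80b and Rftn1 for Ccl24 (0.927 to 0.957) and Ulk1, Fbxw2 and Zmym2 for Cxcr4 (0.994 to 0.997). These values describe 6 libraries that share treatment, depth and replicate number. They were picked as the highest among all tested genes of at least 1 CPM, a choice that gives high r with so few libraries.

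Marker lists of other cells were low or partly without counts. The neutrophil list, led by Csf3r, summed to 245, 229 and 85.6 CPM with LPS and to 23.7, 55.8 and 6.39 CPM with LPS/siponimod, with Mpo, Elane, Ltf and Retnlg at 0. The T or NK cell list summed to 24.0, 22.5 and 11.2 CPM against 20.3, 23.7 and 15.2 CPM, with Cd3e, Cd3g and Nkg7 at 0. By mean it was led by Lck with LPS (9.67 CPM) and by Cd8b with LPS/siponimod (8.95 CPM). The B cell list, led by Cd79b, summed to 16.9, 61.8 and 31.0 CPM against 2.48, 23.4 and 1.37 CPM, with Blk and Cr2 at 0. The endothelial list summed to 203, 249 and 150 CPM against 96.9, 118 and 93.3 CPM, with Kdr and Emcn at 0. By mean it was led by Cdh5 with LPS (92.2 CPM) and by Esam with LPS/siponimod (52.3 CPM). The fibroblast or pericyte list summed to 7.12, 5.50 and 7.05 CPM against 12.2, 5.04 and 10.2 CPM, with Rgs5 at 0. By mean it was led by Col1a1 with LPS (2.81 CPM) and by Dcn with LPS/siponimod (5.08 CPM).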
